A study of Homo sapiens with 16 samples.

Results

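Erastin was given to HT-1080 cells that overexpress WDR76, and the RNA of these cells was set against that of the same genotype without the drug. The comparison uses all 17552 genes with values, in 4 of the 16 libraries of the study: 2 libraries of oeWDR76/Erastin cells and 2 of untreated oeWDR76 cells. HT-1080 cells are an established line from a human fibrosarcoma and readily undergo ferroptosis, a death driven by iron and by the peroxidation of membrane lipids. Erastin blocks system xc-, the antiporter that exports glutamate and brings in cystine, and was used at 10 µM for 24 h. All groups are HT-1080 cells in serum-containing medium, and oeWDR76 is the overexpression of WDR76, a WD40-repeat protein that can serve CRL4 ubiquitin ligases as a substrate receptor. For 3 tests the responses of other genotypes are used as well: siDCAF8/Erastin against siDCAF8 (siRNA against the CRL4 receptor DCAF8), siDCAF8+siLSH/Erastin against siDCAF8+siLSH (siRNAs against DCAF8 and against the chromatin remodeler LSH, encoded by HELLS), and siNS/Erastin against siNS (control siRNA). Each of the 8 groups has 2 libraries.

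The labels name no empty-vector group for oeWDR76 and do not give the vector, the promoter or whether the cells are a clone. The text on erastin stands in the labels of all libraries, so the group name decided which libraries were treated. Whether both libraries of a group are separate cultures is not labelled, and p-values measure the spread between libraries only.

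Cells without cystine run short of glutathione, which the enzyme GPX4 uses to reduce lipid peroxides. A lack of amino acids activates the kinase GCN2 and, through it, the transcription factor ATF4, whose targets import and make amino acids and load tRNAs. Oxidants and electrophiles release NRF2, which switches on HMOX1, the ferritins and the enzymes of glutathione and thioredoxin metabolism. In HT-1080 cells a raised HMOX1 or CHAC1 RNA is often used as a sign of exposure to erastin.

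Levels are FPKM, fragments scaled by transcript length and by the mapped total of the library, as deposited by the authors. Differences are on the scale of log2(FPKM + 1), oeWDR76/Erastin minus oeWDR76 unless another genotype is named, with a standard error (SE). They were tested with limma for the 11260 genes whose FPKM averaged 1 or more in all 16 libraries together, and a gene was called at a Benjamini-Hochberg adjusted p under 0.05. The files give no counts, so the depth is unknown. The 4 libraries summed to 495857 to 503867 FPKM, and the 2 libraries of each group correlated at r = 0.997 across genes, with a median SD of 0.046 log2 in oeWDR76 and 0.047 in oeWDR76/Erastin. Mesenchymal markers summed to 5395 to 5647 FPKM in oeWDR76/Erastin and 5434 to 5486 FPKM in oeWDR76, and epithelial markers to 4.84 to 6.0 FPKM in oeWDR76/Erastin and 5.72 to 5.95 FPKM in oeWDR76, which does not go against the label fibrosarcoma. The 4 oeWDR76 libraries stood apart from the other 12 on the first principal component of all libraries. Among the 4, the first component held 49.6% of the variance and separated oeWDR76/Erastin, at 8.03 and 6.52, from oeWDR76, at -5.86 and -8.69.

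WDR76 RNA stood at 324 and 242 FPKM in the 2 oeWDR76/Erastin libraries and at 268 and 267 FPKM in oeWDR76. The treated libraries lay on both sides of the untreated ones, and the difference was not called (0.06, SE 0.11, adjusted p = 0.845). In siNS/Erastin and siNS its means were 3.3 ± 0.537 and 3.21 ± 0.445 FPKM (SD, n = 2), so the overexpression was present in all 4 libraries. DCAF8 stood at 31.1 and 31.2 FPKM with erastin and 32.8 and 30.9 FPKM without, and HELLS at 10.8 and 11 FPKM with erastin and 10.5 and 11.2 FPKM without. Both genes overlapped between the groups and neither was called (adjusted p = 0.913 for DCAF8 and 0.998 for HELLS).

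The response was small in size. Of the 11260 genes, 163 were called (1.45%), of which 53 were higher with erastin (0.471%) and 110 lower (0.977%). In all 163 the groups did not overlap, but that also held for 2958 genes (26.3%) with both erastin libraries above and 2642 (23.5%) with both below the untreated pair. The called genes had a median absolute difference of 0.39, and they ran from -1.86 to 0.94. Past a 2-fold change were 6 called genes (0.0533%), all lower. Over all tested genes the median difference was 0.01, and the 5th and 95th percentiles were -0.21 and 0.19. The median absolute difference over all tested genes was 0.07 in oeWDR76, against 0.17 in siDCAF8, 0.11 in siDCAF8+siLSH and 0.15 in siNS.

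**Figure D1:**
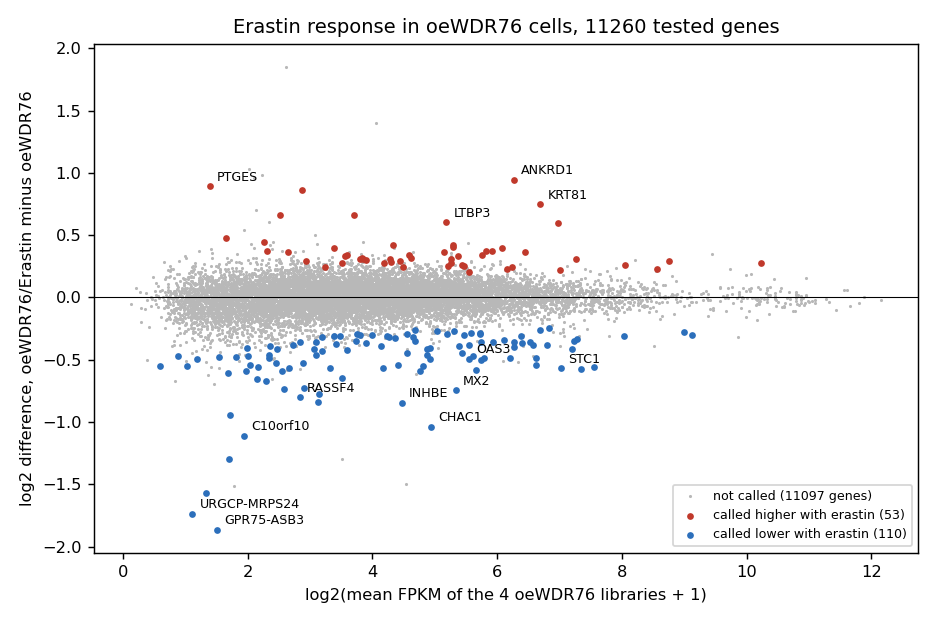
Difference between oeWDR76/Erastin and oeWDR76 on the log2(FPKM + 1) scale (vertical axis) against the level of each of the 11260 tested genes (horizontal axis, log2 of the mean FPKM of the 4 libraries plus 1). The 53 genes called higher (red) reach 0.94 at ANKRD1, and the 110 genes called lower (blue) reach -1.86 at the read-through transcript GPR75-ASB3. The GPR75-ASB3 call was lost under several alternatives.

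The plot of difference against level shows that the called genes spread over the whole range of expression, with the largest falls exceeding the largest rises. With 2 libraries a group the number of calls rested on each library: it was 32 and 39 when replicate 1 or 2 of oeWDR76/Erastin was left out, and 38 and 27 when replicate 1 or 2 of oeWDR76 was. All 163 kept their direction in these fits, 105 were called in none of the 4, and 14 were called in all 4. They include ANKRD1, KRT81 and LTBP3 among the rises, and C10orf10, CHAC1, RASSF4, MX2, CTHRC1, IL21R, LURAP1L, STC1, OAS3 and ACSS2 among the falls.

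**Figure D2:**
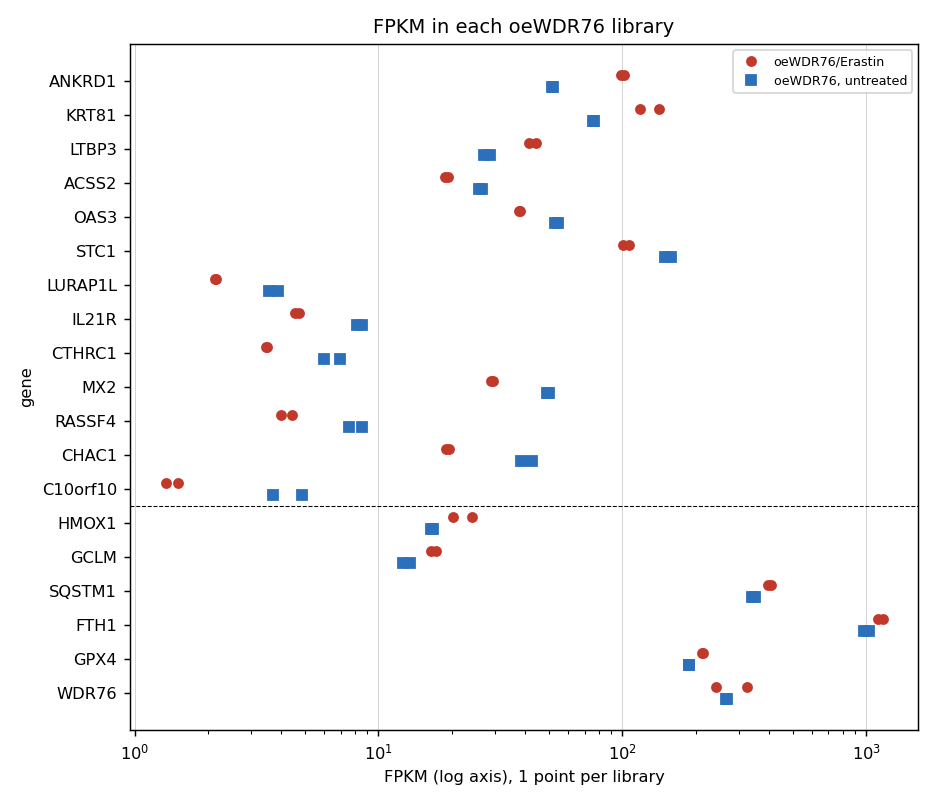
FPKM on a log axis in each library for 13 of the 14 genes called in every fit that left out 1 library (above the dashed line) and for HMOX1, GCLM, SQSTM1, FTH1, GPX4 and WDR76, which were not called. Circles are the 2 oeWDR76/Erastin libraries and squares the 2 oeWDR76 libraries; ANKRD1 stood at 99.2 and 102 FPKM with erastin against 51.8 and 51.6 FPKM without, and CHAC1 at 19 and 19.4 FPKM with erastin against 38.5 and 42.6 FPKM without.

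Among the genes that mark a response to erastin, HMOX1, which encodes the heme-degrading enzyme heme oxygenase 1, had 20.3 and 24.1 FPKM in oeWDR76/Erastin and 16.7 and 16.4 FPKM in oeWDR76. Both treated values were above both untreated values, and the difference was not called (0.40, SE 0.30, adjusted p = 0.595). In siNS the corresponding means were 176 ± 92.2 FPKM with erastin and 14.7 ± 0.502 FPKM without (SD, n = 2), a difference of 3.39. The test of the difference between the responses, oeWDR76 minus siNS, gave -2.99 (SE 0.42, adjusted p = 0.000373). Against the mean response of siDCAF8, siDCAF8+siLSH and siNS it gave -2.81 (adjusted p = 0.000167), so the response of HMOX1 was below that mean by test.

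FTH1, the ferritin heavy chain that stores iron, had 1114 and 1168 FPKM in oeWDR76/Erastin and 1028 and 977 FPKM in oeWDR76. These groups did not overlap and the gene was not called (0.19, adjusted p = 0.412), whereas the difference from the siNS response was (-1.30, SE 0.13, adjusted p = 6.31e-05). Ferritin genes have processed pseudogenes, which can share their reads. GCLM, the modifier subunit of glutamate-cysteine ligase, stood at 16.4 and 17.2 FPKM with erastin and 13.4 and 12.7 FPKM without (adjusted p = 0.0909). SQSTM1, an autophagy adaptor that also binds the NRF2 inhibitor KEAP1, stood at 405 and 395 FPKM with erastin and 341 and 349 FPKM without (adjusted p = 0.197). TXNRD1, thioredoxin reductase, had 77.7 and 70.9 FPKM with erastin and 62 and 64.9 FPKM without (adjusted p = 0.285). In each of the 3 genes both erastin libraries lay above both untreated ones, none was called, and each response was lower than in siNS, by -0.93, -1.09 and -0.77 (adjusted p = 0.000417, 5.68e-05 and 0.00139). In a fit of only the 4 oeWDR76 libraries HMOX1, GCLM and SQSTM1 were called higher (adjusted p = 0.0352, 0.0244 and 0.0344), with the same differences.

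As a list, the NRF2 targets had 29 tested members, of which 0 were called by limma in oeWDR76 and 10 had an unadjusted p under 0.05, against 13.6% of all tested genes at that level. With GC content and transcript length corrected for, TKT, a pentose phosphate enzyme, was called higher. Their median was 0.07, 22 were positive, and 14 had both erastin libraries above both untreated ones (48.3%, against 26.3% of all tested genes). In siNS 18 of the 29 were called higher, against 15.1% of all tested genes, with a median of 0.35. The response of 12 members was lower in oeWDR76 than in siNS, against 5.11% of all tested genes called lower in that test, and 0 members responded more. Against the mean of the other 3 genotypes 14 members were lower (background 2.55%), and 0 were higher. The summed level of the list was 5485 and 5503 FPKM in oeWDR76/Erastin and 4999 and 4985 FPKM in oeWDR76. In siNS/Erastin the sums were 7198 and 7707 FPKM, and in siNS 3965 and 3996 FPKM. Untreated oeWDR76 cells therefore stood above untreated siNS cells and below siNS/Erastin in this sum.

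Genes that act in ferroptosis itself were mostly not called. GPX4, which reduces lipid hydroperoxides with glutathione, stood at 215 and 212 FPKM with erastin and 188 and 187 FPKM without, groups that did not overlap, and was not called (0.19, SE 0.05, adjusted p = 0.0888). It was called with the GC and length correction and in the fit of only the 4 libraries (adjusted p = 0.0269 and 0.0496). ACSL4, which loads polyunsaturated fatty acids into lipids, had 18.9 and 19.6 FPKM with erastin and 18.5 and 17.1 FPKM without (adjusted p = 0.436). TFRC, the transferrin receptor, had 20.4 and 26.6 FPKM with erastin and 19 and 25.3 FPKM without (adjusted p = 0.792). TFRC overlapped between the groups and ACSL4 did not. The FTL light chain of ferritin stood at 2152 and 2054 FPKM with erastin and 1893 and 1871 FPKM without (adjusted p = 0.265), again without overlap. PTGS2, a cyclooxygenase used as a ferroptosis marker in mice, was below the level for testing, at 0.1 and 0.08 FPKM with erastin and 0.18 and 0.1 FPKM without. Of 22 iron-handling genes 0 were called by limma and 5 had an unadjusted p under 0.05, against 13.6% of all tested genes. Among all tested genes 0.977% were called lower. Among 19 ferroptosis suppressors FADS2, a fatty acid desaturase, fell (-0.34, adjusted p = 0.03), at 59.9 and 60.4 FPKM with erastin against 71.6 and 81.7 FPKM without. Among 17 lipid drivers ALOXE3, an epidermal lipoxygenase family member, fell (-0.56, adjusted p = 0.0276), at 3.65 and 4.57 FPKM with erastin against 6.76 and 6.3 FPKM without.

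The antiporter that erastin blocks is a pair of SLC7A11, the transporting chain, and SLC3A2, its heavy chain shared with other transporters. SLC7A11 had 1.66 and 1.88 FPKM in oeWDR76/Erastin and 2.45 and 2.76 FPKM in oeWDR76; both erastin values were lower and the gene was not called (-0.38, SE 0.16, adjusted p = 0.301). SLC3A2 fell (-0.33, SE 0.06, adjusted p = 0.00797), with 136 and 137 FPKM in oeWDR76/Erastin, both below the 169 and 176 FPKM of oeWDR76. In siNS, SLC3A2 fell by more, and the responses differed by 0.53 (adjusted p = 0.000784).

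Genes of the ATF4 pathway and of amino acid supply held 21 of the 163 calls, all of them lower with erastin. Of 27 tested ATF4 pathway regulators 11 fell and 0 rose, with a median of -0.27. Of 23 amino acid synthesis genes 4 fell, of 18 amino acid transporters 4 fell, and of 20 cytosolic aminoacyl-tRNA synthetases 2 fell, with 0 rises in each. Together these 4 lists have 88 tested genes, of which 21 fell (23.9%, against 0.977% of all tested genes), 70 were negative, and 63 had both erastin libraries below both untreated ones (71.6%, against 23.5%). With the same correction 7 of 26 regulators were called lower and GDF15 higher; CHAC1 has no GC value and was left out there. Without oeWDR76 replicate 2, 2 regulators were called, and 3 without any other of the 4 libraries, while their median stayed between -0.29 and -0.25. Of the 21 falls, CHAC1 and LURAP1L were called in each of these fits, and 7 were called in at least 1.

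CHAC1 degrades glutathione and is induced by ATF4. It stood at 19 and 19.4 FPKM in oeWDR76/Erastin and 38.5 and 42.6 FPKM in oeWDR76. Both erastin libraries lay far below both untreated libraries, as the plot of library values shows, and the difference was -1.04 (SE 0.14, adjusted p = 0.00153). INHBE, an inhibin beta subunit, had 14.1 and 15.6 FPKM with erastin and 26.1 and 28.7 FPKM without (-0.84, SE 0.13, adjusted p = 0.00413). TRIB3, a pseudokinase that feeds back on ATF4, had 39.3 and 40.9 FPKM with erastin and 56.4 and 55.5 FPKM without (-0.47, adjusted p = 0.0162). SESN2, a leucine sensor that restrains mTORC1, had 22 and 21.4 FPKM with erastin and 32.5 and 32 FPKM without (-0.55, adjusted p = 0.0048). VEGFA, an angiogenic growth factor, had 38.2 and 40.5 FPKM with erastin and 60.2 and 58.8 FPKM without (-0.58, adjusted p = 0.0121). In each of these genes the groups did not overlap. ATF4 itself, chosen after its values were seen, fell to 455 and 465 FPKM with erastin, against 546 and 568 FPKM without (-0.27, SE 0.06, adjusted p = 0.041). DDIT3 (CHOP), chosen likewise, had 82.9 and 81.5 FPKM with erastin and 111 and 104 FPKM without (-0.38, adjusted p = 0.0371). LURAP1L, at 2.15 and 2.13 FPKM with erastin and 3.89 and 3.56 FPKM without, fell (-0.59, adjusted p = 0.00244).

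Genes that make or carry amino acids fell as well. PSAT1, a step of serine synthesis, had 82.7 and 79.5 FPKM in oeWDR76/Erastin and 114 and 114 FPKM in oeWDR76 (-0.49, SE 0.09, adjusted p = 0.0113). GPT2, the mitochondrial alanine aminotransferase, had 16.4 and 16.3 FPKM with erastin and 23.3 and 25.3 FPKM without (-0.54, adjusted p = 0.0274). GOT1, the cytosolic aspartate aminotransferase, had 39 and 38.8 FPKM with erastin and 47.9 and 48.2 FPKM without (-0.30, adjusted p = 0.0466, lost with quantile normalization at 0.0759). ALDH1L2, a mitochondrial folate enzyme, had 4.92 and 4.58 FPKM with erastin and 6.86 and 6.17 FPKM without (-0.39, adjusted p = 0.0356). The groups did not overlap in any of the 4. Among transporters SLC1A4, a carrier of small neutral amino acids, had 4.63 and 5.96 FPKM with erastin and 9.9 and 10.5 FPKM without (-0.84, adjusted p = 0.0151). SLC7A5, the light chain of the leucine carrier LAT1, had 80.2 and 78.9 FPKM with erastin and 112 and 121 FPKM without (-0.54, adjusted p = 0.0127). The glutamine carrier SLC1A5 had 128 and 136 FPKM with erastin and 164 and 171 FPKM without (-0.35, adjusted p = 0.0182). Of the tRNA synthetases a pair was called, CARS for cysteine and YARS for tyrosine. CARS had 67.5 and 66.6 FPKM with erastin and 85.3 and 86.9 FPKM without (-0.36, adjusted p = 0.00527). YARS had 91.2 and 94.3 FPKM with erastin and 109.7 and 113 FPKM without (-0.26, adjusted p = 0.0344). None of these 9 genes overlapped between the groups. The 24 genes of the ER unfolded protein response, another input to ATF4, had 0 calls by limma, 3 unadjusted p-values under 0.05 and a median of -0.02. Of all tested genes 13.6% had an unadjusted p under 0.05 by limma.

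ATF4 binds as a dimer with a C/EBP partner at the C/EBP-ATF response element, searched here as TGATGNAA on both strands. The windows below are the 250 bases before the start of CHAC1 (GRCh38.p14, chr15:40953221-40953470, plus strand) and GOT1 (chr10:99430625-99430874, minus strand) in RefSeq, 5′ to 3′ in the direction of the gene, and they are shown because they are the called list members whose windows hold the element. Capitals mark it, here on the opposite strand.
CHAC1: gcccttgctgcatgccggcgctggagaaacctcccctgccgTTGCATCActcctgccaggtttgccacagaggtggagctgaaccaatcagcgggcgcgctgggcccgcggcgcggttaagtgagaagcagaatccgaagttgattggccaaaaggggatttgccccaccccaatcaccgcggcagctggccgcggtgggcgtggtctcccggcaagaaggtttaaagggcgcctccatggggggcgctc
GOT1: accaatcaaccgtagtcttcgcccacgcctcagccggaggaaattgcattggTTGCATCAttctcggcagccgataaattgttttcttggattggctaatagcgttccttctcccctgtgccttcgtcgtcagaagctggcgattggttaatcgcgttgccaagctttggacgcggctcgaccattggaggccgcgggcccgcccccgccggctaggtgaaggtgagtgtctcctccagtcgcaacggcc
The element lies 209 bases before the start in CHAC1 and 198 bases before it in GOT1, and neither window holds the other elements searched. Of 68 members of the 4 lists with a window, 9 hold it (13.2%), against 3.19% of all 27305 windows and 1.38% of the 9283 windows of tested genes. Of 16 members that fell 2 hold it (12.5%), and of 52 that were not called 7 do (13.5%).

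**Figure D3:**
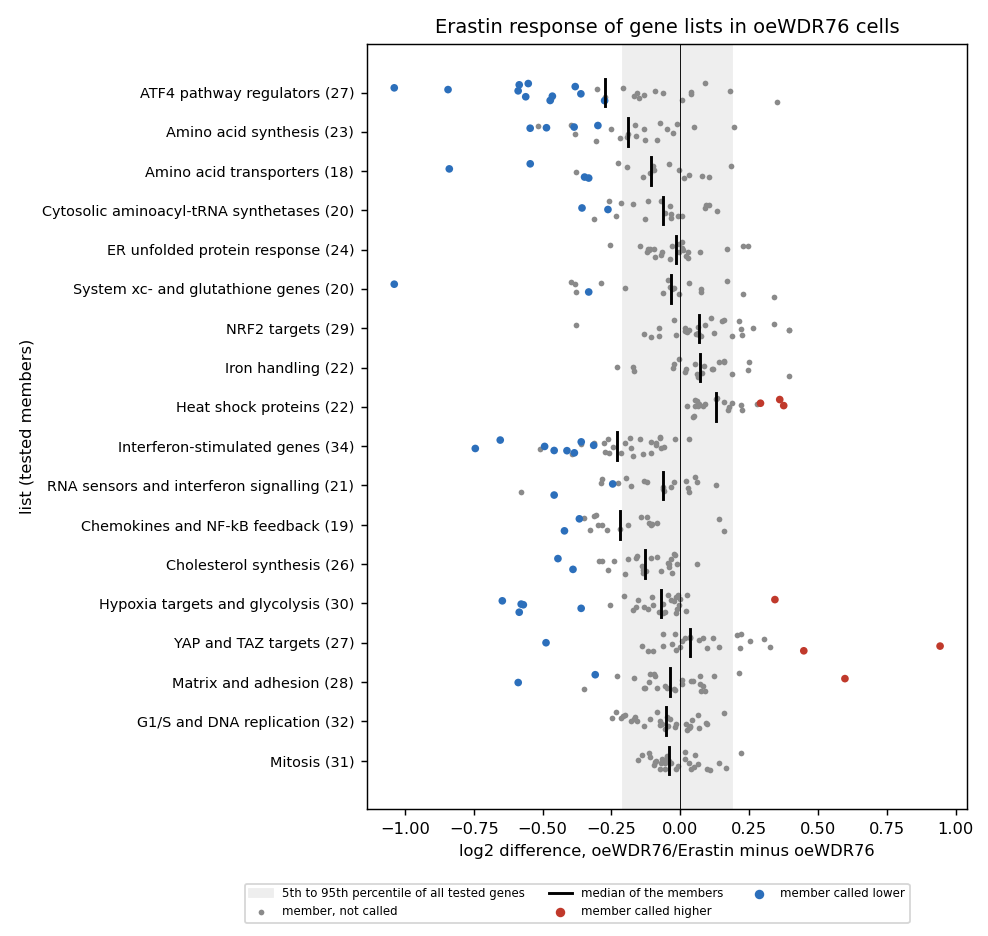
Difference between oeWDR76/Erastin and oeWDR76 on the log2(FPKM + 1) scale for the tested members of 18 gene lists, 1 point per gene, with called members in colour and a bar at the median of each list. The grey band spans the 5th to 95th percentile of single genes, -0.21 to 0.19, and is no yardstick for a list's median. ATF4 pathway regulators had a median of -0.27, interferon-stimulated genes of -0.23 and chemokines and NF-kB feedback genes of -0.22.

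Interferon-stimulated genes made up the next group of falls. These genes are switched on by type I interferon through the factor ISGF3 and encode antiviral effectors. Of 34 tested members 8 fell (23.5%, against 0.977% of all tested genes) and 0 rose, 33 were negative, and the median was -0.23. In 31 of them both erastin libraries lay below both untreated ones (91.2%, against 23.5% of all tested genes). Without oeWDR76 replicate 2, 3 members were called, and 4 without any other of the 4 libraries, with medians between -0.24 and -0.22. MX2 and OAS3 were called in each of these fits. The list stood high in this genotype before treatment: its members summed to 6200 and 6254 FPKM in oeWDR76/Erastin and 7111 and 7106 FPKM in oeWDR76, whereas the other 12 libraries ran from 725 to 956 FPKM. The blood cell markers were lower with erastin too, summing to 13.3 to 14.3 FPKM in oeWDR76/Erastin and 16.7 to 17.1 FPKM in oeWDR76. Of these 10 markers 4 were tested, 0 were called, HBB was at 0 in all 4 libraries, and the highest, LAPTM5, had 4.39 and 4.83 FPKM with erastin and 6.22 and 6.23 FPKM without. The 8 endothelial markers summed to 5.57 to 5.83 FPKM in oeWDR76/Erastin and 6.55 to 6.62 FPKM in oeWDR76, with 0 of 2 tested members called. The part of these markers in the result was not tested.

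MX2, a GTPase that restricts retroviruses, had 29 and 29.4 FPKM in oeWDR76/Erastin and 50.1 and 49.2 FPKM in oeWDR76. The groups lay well apart, with a difference of -0.74 (SE 0.08, adjusted p = 0.000287). Its mean in the other 6 groups was at most 0.26 ± 0.0141 FPKM (SD, n = 2, in siNS), so it passed the filter on low values through oeWDR76 alone. The SE and p pool the spread of all 8 groups, also in the fits without 1 library. For MX2 they therefore rest mostly on libraries near 0 FPKM, where this scale leaves little spread. The same holds in part for genes below that were low in siNS, such as XAF1 and OAS3. MX2 was not called with a pseudocount of 0.1 (adjusted p = 0.184). MX1, the neighbouring antiviral GTPase, had 128 and 122 FPKM with erastin and 165 and 169 FPKM without (-0.41, adjusted p = 0.00244). OAS3, a sensor of double-stranded RNA that makes the activator of RNase L, had 38.1 and 37.6 FPKM with erastin and 54.3 and 53 FPKM without (-0.49, SE 0.06). OAS2, of the same family, had 98.4 and 93.9 FPKM with erastin and 132 and 120.3 FPKM without (-0.38, adjusted p = 0.0075). XAF1, which promotes apoptosis, had 2.41 and 2.47 FPKM with erastin and 4.12 and 4.72 FPKM without (-0.65, adjusted p = 0.00349). USP18, the enzyme that removes ISG15 and damps the receptor, had 23.3 and 24.4 FPKM with erastin and 34.4 and 32 FPKM without (-0.46, adjusted p = 0.0283). IFI35 had 78 and 81.4 FPKM with erastin and 98.5 and 107 FPKM without (-0.36, adjusted p = 0.0183). In all 7 genes both erastin libraries were the lower ones. PARP14, an ADP-ribosyltransferase named because of its promoter and after its values were seen, had 21.3 and 21.4 FPKM with erastin and 26.8 and 26.9 FPKM without (-0.31, adjusted p = 0.0183).

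Among 21 RNA sensors and interferon signalling genes 2 fell, USP18 among them, and 0 rose, where 0.977% of all tested genes fell. The 17 genes of MHC class I presentation had 0 calls by limma, 5 unadjusted p-values under 0.05 and a median of -0.11, with B2M at 1295 and 1339 FPKM with erastin and 1281 and 1221 FPKM without. Over all tested genes 13.6% had an unadjusted p under 0.05 by limma. In the list of chemokines and NF-kB feedback genes 2 of 19 fell (0.977% of all tested genes did) and 17 were negative, with a median of -0.22. Both calls were lost in each fit without 1 library. TNFAIP3 (A20), an inhibitor of NF-kB signalling, had 9.07 and 9.55 FPKM with erastin and 12.8 and 12.8 FPKM without (-0.42, SE 0.08, adjusted p = 0.0108). NFKBIA (IkB alpha) had 74.4 and 71.2 FPKM with erastin and 93.5 and 94.6 FPKM without (-0.37, adjusted p = 0.0274). Neither overlapped between the groups. In siNS the response of TNFAIP3 was 0.47, a called rise, and the responses differed (-0.89, adjusted p = 0.000136). Of 23 immediate early genes 2 fell, against 0.977% of all tested genes. JUN, an AP-1 subunit, fell (41.1 and 38.7 FPKM with erastin and 51.3 and 53.4 FPKM without, -0.38, adjusted p = 0.00527), as did HBEGF, an EGF receptor ligand (29.7 and 27.5 FPKM with erastin and 35.8 and 33.6 FPKM without, -0.27, adjusted p = 0.0479).

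The factor ISGF3 binds the interferon-stimulated response element (ISRE), searched as GAAA, any 2 bases and GAAA on both strands. The windows of OAS3 (GRCh38.p14, chr12:112938224-112938473, plus strand) and PARP14 (chr3:122680589-122680838, plus strand) are shown as the called interferon-stimulated genes that hold it, with the element in capitals.
OAS3: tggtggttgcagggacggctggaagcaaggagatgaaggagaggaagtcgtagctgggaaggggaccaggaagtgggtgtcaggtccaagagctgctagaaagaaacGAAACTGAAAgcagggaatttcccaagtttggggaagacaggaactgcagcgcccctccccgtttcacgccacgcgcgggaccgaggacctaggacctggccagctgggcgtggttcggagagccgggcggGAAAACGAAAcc
PARP14: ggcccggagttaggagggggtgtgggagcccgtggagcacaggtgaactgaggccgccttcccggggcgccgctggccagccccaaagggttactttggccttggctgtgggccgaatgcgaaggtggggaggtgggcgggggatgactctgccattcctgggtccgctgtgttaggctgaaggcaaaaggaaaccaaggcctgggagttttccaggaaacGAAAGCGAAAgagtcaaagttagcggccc
OAS3 has 2 matches, the farther at 143 bases before the start, and PARP14 has 1 at 29 bases, beside a match to the TEAD element described below that is not marked. Of 27 interferon-stimulated genes with a window 17 hold the ISRE (63.0%), against 3.07% of all windows and 2.4% of those of tested genes. It stood in 2 of 5 members that fell (40.0%) and in 15 of 22 that were not called (68.2%).

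The rises included single genes of the YAP and TAZ and the TGF-beta pathways. ANKRD1, a nuclear ankyrin-repeat protein and a common reporter of the coactivators YAP and TAZ, stood at 99.2 and 102 FPKM in oeWDR76/Erastin and 51.8 and 51.6 FPKM in oeWDR76. The libraries within each group nearly coincided, and the difference was 0.94 (SE 0.08, adjusted p = 1.87e-05). It was called in all other genotypes too, by 1.46 in siDCAF8, 1.04 in siDCAF8+siLSH and 1.18 in siNS, and the difference from siNS was not called (adjusted p = 0.174). Its level was lower in this genotype, with a mean of 786 ± 46 FPKM in siNS/Erastin and 346 ± 8.86 FPKM in siNS (SD, n = 2).

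LTBP3, which binds latent TGF-beta, had 44.2 and 41.5 FPKM in oeWDR76/Erastin and 27.1 and 28.7 FPKM in oeWDR76 (0.60, SE 0.09, adjusted p = 0.00244). TGFB2, a TGF-beta ligand, had 4.5 and 4.62 FPKM with erastin and 2.95 and 3.2 FPKM without (0.45, adjusted p = 0.00566). SNAI2 (Slug), a repressor of epithelial genes, had 42.3 and 45.8 FPKM with erastin and 34.8 and 30.6 FPKM without (0.42, adjusted p = 0.0246). The groups did not overlap in these 3 genes. KRT81, a hair keratin, had 118 and 141 FPKM with erastin and 75.8 and 76.5 FPKM without (0.75, SE 0.09, adjusted p = 0.000287). Its close paralog KRT86 had 4.92 and 7.22 FPKM with erastin and 3.65 and 3.17 FPKM without (0.66, adjusted p = 0.0242); reads of the pair may be shared. PTGES, prostaglandin E synthase, was low, at 2.71 and 2.11 FPKM with erastin and 1.04 and 0.64 FPKM without (0.89, adjusted p = 0.0113). CPA4, a carboxypeptidase, had 73.4 and 77.8 FPKM with erastin and 56 and 58.5 FPKM without (0.39, adjusted p = 0.00627), and its response exceeded that of siNS (0.39, adjusted p = 0.0124). LACTB, a mitochondrial serine protease family member, had 43.3 and 44.1 FPKM with erastin and 33.9 and 31.6 FPKM without (0.41, adjusted p = 0.00244). TMEM263 had 21.9 and 22 FPKM with erastin and 16.2 and 16.1 FPKM without (0.42, adjusted p = 0.00566). Both erastin libraries were higher in each.

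Of 27 YAP and TAZ targets 2 rose, ANKRD1 and TGFB2, and 1 fell, NUAK2, a kinase, at 2.99 and 3.48 FPKM with erastin and 4.75 and 5.11 FPKM without (-0.49, adjusted p = 0.0176). The list's median was 0.04, and of all tested genes 0.471% rose and 0.977% fell. With the GC and length correction 5 of 26 rose, 1 fell and the median was 0.08. Of 20 TGF-beta and activin signalling genes 1 rose, TGFB2, and the median was 0.01. Of 28 matrix and adhesion genes 1 rose and 2 fell. TNC, the matrix protein tenascin C, fell (3.77 and 3.57 FPKM with erastin and 5.77 and 6.28 FPKM without, -0.59, adjusted p = 0.00413), as did PLAU, the urokinase (244 and 225 FPKM with erastin and 294 and 287 FPKM without, -0.31, adjusted p = 0.0411). CTHRC1, a secreted collagen-repeat protein, fell to 3.47 and 3.49 FPKM with erastin, against 6.97 and 5.98 FPKM without (-0.74, SE 0.08, adjusted p = 0.000287).

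YAP and TAZ act through TEAD factors, whose element was searched as GGAATG on both strands. The windows of ANKRD1 (GRCh38.p14, chr10:90921088-90921337, minus strand), which rose, and NUAK2 (chr1:205321746-205321995, minus strand), which fell, both hold 2 matches, in capitals in either orientation.
ANKRD1: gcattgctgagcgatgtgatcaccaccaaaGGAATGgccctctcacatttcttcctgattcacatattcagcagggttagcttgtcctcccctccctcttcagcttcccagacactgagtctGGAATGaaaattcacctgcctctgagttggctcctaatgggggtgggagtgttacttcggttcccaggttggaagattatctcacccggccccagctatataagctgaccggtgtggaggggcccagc
NUAK2: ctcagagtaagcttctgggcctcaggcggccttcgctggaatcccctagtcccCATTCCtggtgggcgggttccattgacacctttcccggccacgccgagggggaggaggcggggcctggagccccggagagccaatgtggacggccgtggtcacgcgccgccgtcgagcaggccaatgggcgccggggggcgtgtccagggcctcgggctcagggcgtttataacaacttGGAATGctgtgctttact
The farther match lies 220 bases before the start of ANKRD1 and 197 bases before that of NUAK2. Of 20 YAP and TAZ targets with a window 7 hold the element (35%), against 11.9% of all windows and 9.37% of those of tested genes, so that the same letters stand in genes that moved in opposite directions. Both members that rose, ANKRD1 and TGFB2, and the 1 that fell hold it, as do 4 of 17 that were not called (23.5%).

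Heat shock proteins, the chaperones of the HSF1 response, lay slightly above 0. All 22 tested members were positive, 17 had both erastin libraries above both untreated ones (77.3%, against 26.3%), and the median was 0.13. Called higher were 3 members (13.6%, against 0.471% of all tested genes). Of these, HSPA1B alone stayed called with median-ratio scaling or with quantile normalization. HSP90AA1, the inducible HSP90, had 473 and 473 FPKM in oeWDR76/Erastin and 382 and 390.2 FPKM in oeWDR76 (0.29, SE 0.07, adjusted p = 0.0437). HSPA1A and HSPA1B encode nearly identical HSP70 proteins and may share reads; they stood at 40.6 and 37.6 FPKM and 64.7 and 61.1 FPKM with erastin, against 29.8 and 30.5 FPKM and 45.9 and 50.7 FPKM without (adjusted p = 0.0437 and 0.0153). Each of the 3 had groups that did not overlap. The response of 9 members was lower than in siNS (5.11% of all tested genes were), where 19 were called higher (15.1% of all). The 9 became 13 with median-ratio scaling or quantile normalization and 15 with the GC and length correction.

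Hypoxia targets and glycolysis genes had 5 falls and 1 rise among 30, with a median of -0.07, where 0.977% of all tested genes fell and 0.471% rose. STC1, a secreted glycoprotein induced by HIF and by stress, had 101 and 106 FPKM in oeWDR76/Erastin and 159 and 149.8 FPKM in oeWDR76 (-0.57, SE 0.06, adjusted p = 0.000287). NDRG1, a stress-induced gene, had 133 and 125 FPKM with erastin and 215 and 173 FPKM without (-0.58, SE 0.09, adjusted p = 0.00349). PFKFB4, a regulator of glycolysis, had 7.91 and 7.91 FPKM with erastin and 14.1 and 11.9 FPKM without (-0.65, adjusted p = 0.00732). ENO2, an enolase, had 47 and 45.1 FPKM with erastin and 62.3 and 56.7 FPKM without (-0.36, adjusted p = 0.0318). With VEGFA these are the falls, and HIF1A, the oxygen-regulated factor itself, rose to 63.4 and 55.6 FPKM with erastin, against 49.1 and 44.1 FPKM without (0.34, adjusted p = 0.024), a call lost with the GC and length correction (adjusted p = 0.0586). TXNIP, an inhibitor of thioredoxin that follows glucose, fell (-0.59, SE 0.13, adjusted p = 0.0321), with 21.4 and 19.7 FPKM with erastin and 38.5 and 25.6 FPKM without. The untreated TXNIP libraries lay far from each other, though both above the treated ones.

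The list of cholesterol synthesis genes, targets of SREBP2, also holds SREBF1. It had 2 falls among 26 (7.69%, against 0.977% of all tested genes), 25 negative members and a median of -0.13. SREBF1, the SREBP1 gene and one of these falls, had 35.1 and 35.3 FPKM with erastin and 43.6 and 49.5 FPKM without (-0.39, adjusted p = 0.0305). ACSS2, which makes acetyl-CoA from acetate, is not on the list, was named after its values were seen and had 19.4 and 18.7 FPKM with erastin and 26.6 and 25.9 FPKM without (-0.44, SE 0.07, adjusted p = 0.00244). In both genes the erastin libraries lay below the untreated ones.

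Among the largest falls outside the lists, IL21R, a cytokine receptor chain, had 4.55 and 4.73 FPKM in oeWDR76/Erastin and 8.16 and 8.55 FPKM in oeWDR76 (-0.73, SE 0.10, adjusted p = 0.00152). C10orf10 (DEPP1), a FOXO target, had 1.34 and 1.51 FPKM with erastin and 4.84 and 3.68 FPKM without (-1.11, SE 0.15, adjusted p = 0.00143). RASSF4, a Ras-association protein, had 3.98 and 4.42 FPKM with erastin and 8.53 and 7.6 FPKM without (-0.80, SE 0.10, adjusted p = 0.000441). On GRCh38 C10orf10 lies at chr10:44976261-44978882, inside the span of RASSF4 at chr10:44959771-44994724, and no source used here says that reads were counted by strand, so the pair may share reads. SLAMF9, a receptor of the SLAM family, had 5.18 and 5.79 FPKM with erastin and 11.6 and 8.8 FPKM without (-0.78, adjusted p = 0.00566). KLHDC7B had 2.54 and 3.07 FPKM with erastin and 4.67 and 5.42 FPKM without (-0.67, adjusted p = 0.00566). NRSN1 had 1.21 and 1.28 FPKM with erastin and 3.86 and 2.82 FPKM without (-0.94, adjusted p = 0.0161). All 6 were lower in both erastin libraries.

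Of all tested genes limma called 1.45% and gave 13.6% an unadjusted p under 0.05. Several lists had 0 calls by limma in this comparison. They were mitosis (31 tested, median -0.04, 2 with an unadjusted p under 0.05), G1/S and DNA replication (32, -0.05, 5), cytosolic ribosomal proteins (36, -0.01, 4), the nuclear-encoded respiratory chain (31, 0.02, 1), the proteasome (31, 0.03, 0), autophagy and lysosome (25, 0.02, 4) and the CRL4 and LSH pathway (26, -0.01, 4). As examples, RPS2, a ribosomal protein, stood at 3780 and 3803 FPKM in oeWDR76/Erastin and 3768 and 3812 FPKM in oeWDR76 (adjusted p = 0.997). ATP5B, an ATP synthase subunit, had 525 and 527 FPKM with erastin and 535 and 519 FPKM without (adjusted p = 0.985). Both overlapped between the groups. Of 25 p53 targets 1 rose and 1 fell, against 0.471% and 0.977% of all tested genes. ZMAT3 rose (9.18 and 9.25 FPKM with erastin and 7.67 and 7.62 FPKM without, 0.24, adjusted p = 0.0437) and SESN2 fell. The ZMAT3 call was lost with quantile normalization, a replicate block and the fit of only the 4 oeWDR76 libraries (adjusted p = 0.0508, 0.0519 and 0.0925).

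The mitosis list had falls in all other genotypes. In siDCAF8 27 of its 31 members fell with erastin, and in siDCAF8+siLSH and siNS all 31 fell, with medians of -0.52, -0.62 and -0.64. Of all tested genes 22.5% were called lower in siDCAF8, 9.54% in siDCAF8+siLSH and 22.4% in siNS. The difference of the responses, oeWDR76 minus siNS, was called higher for all 31 (median 0.64, against 9.04% of all tested genes), and likewise against the mean of the other 3 (median 0.59, background 4.5%). Both counts were 31 with median-ratio scaling, with quantile normalization and with the GC and length correction. CDC20, the activator of the anaphase-promoting complex, had 139 and 147 FPKM in oeWDR76/Erastin and 132 and 144 FPKM in oeWDR76, which overlapped (adjusted p = 0.824). In siNS/Erastin it had 49.4 ± 0.255 FPKM and in siNS 86.3 ± 1.16 FPKM (SD, n = 2), and the responses differed by 0.84 (SE 0.11, adjusted p = 0.000229). PLK1, a mitotic kinase, had 89.7 and 89.9 FPKM with erastin and 93.4 and 97.9 FPKM without in oeWDR76, and 39.8 ± 1.81 FPKM and 73.2 ± 1.15 FPKM in siNS (difference of responses 0.77, adjusted p = 0.000838). The summed level of the list was 1598 and 1624 FPKM in oeWDR76/Erastin and 1627 and 1630 FPKM in oeWDR76, against 862 and 872 FPKM in siNS/Erastin and 1397 and 1380 FPKM in siNS. Fewer dividing cells and less RNA per dividing cell cannot be told apart in such bulk samples. G1/S and DNA replication genes responded higher in 13 of 32 cases against the mean of the other 3, and TYMS, thymidylate synthase, stood at 134 and 134 FPKM with erastin and 130.2 and 131 FPKM without in oeWDR76 (difference of responses from the other 3 0.50, adjusted p = 0.000167).

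**Figure D4:**
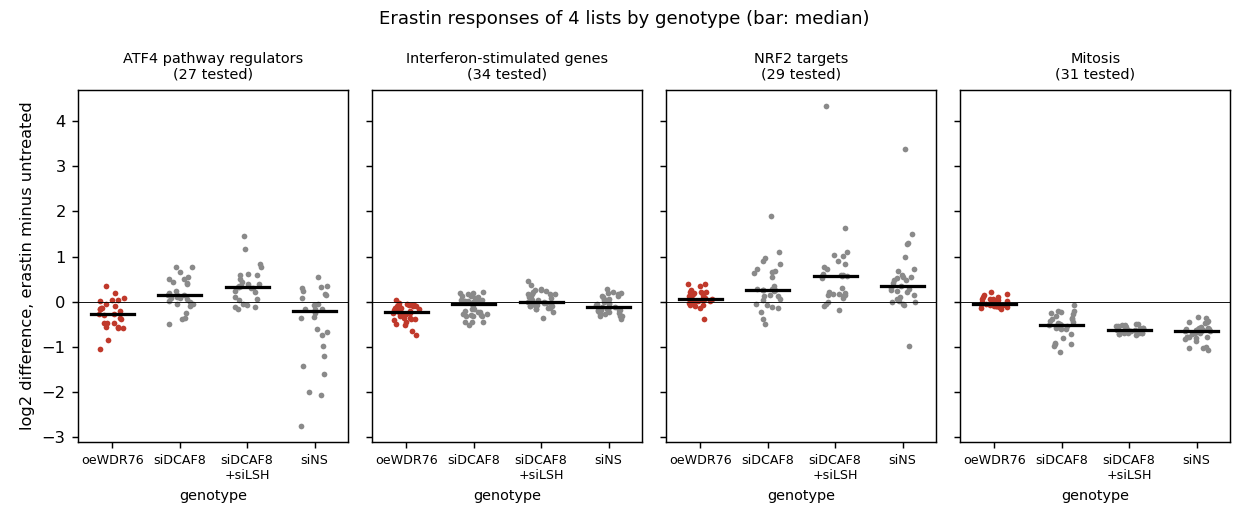
Erastin response on the log2(FPKM + 1) scale of each tested member of 4 lists in oeWDR76 (red) and in siDCAF8, siDCAF8+siLSH and siNS (grey), with a bar at the median. Mitosis genes had a median of -0.04 in oeWDR76 and of -0.64 in siNS, NRF2 targets of 0.07 and 0.35, and ATF4 pathway regulators of -0.27 and -0.22, against 0.14 in siDCAF8 and 0.33 in siDCAF8+siLSH.

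Over all tested genes, 1593 responded differently in oeWDR76 than in siNS (14.1%), 1018 higher and 575 lower, a split that was 793 and 778 with median-ratio scaling and 804 and 837 with quantile normalization. Against the mean of the other 3 genotypes 794 did (7.05%), 507 higher and 287 lower. The erastin comparisons of the 4 genotypes share no library, though they share 1 estimate of the spread. Erastin called 4223 genes in siNS (37.5%), 4600 in siDCAF8 (40.9%) and 2270 in siDCAF8+siLSH (20.2%). Of the 163 genes called in oeWDR76, 105 were called in the same direction in siNS, which is 64.4% of the oeWDR76 calls and 2.49% of the siNS calls, and 5 in the opposite direction. In siDCAF8 86 had the same direction and 10 the opposite, and in siDCAF8+siLSH 46 and 29. Across the tested genes, which are not independent replicates, the response in oeWDR76 correlated at r = 0.355 with that in siNS, 0.352 with that in siDCAF8 and 0.084 with that in siDCAF8+siLSH.

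**Figure D5:**
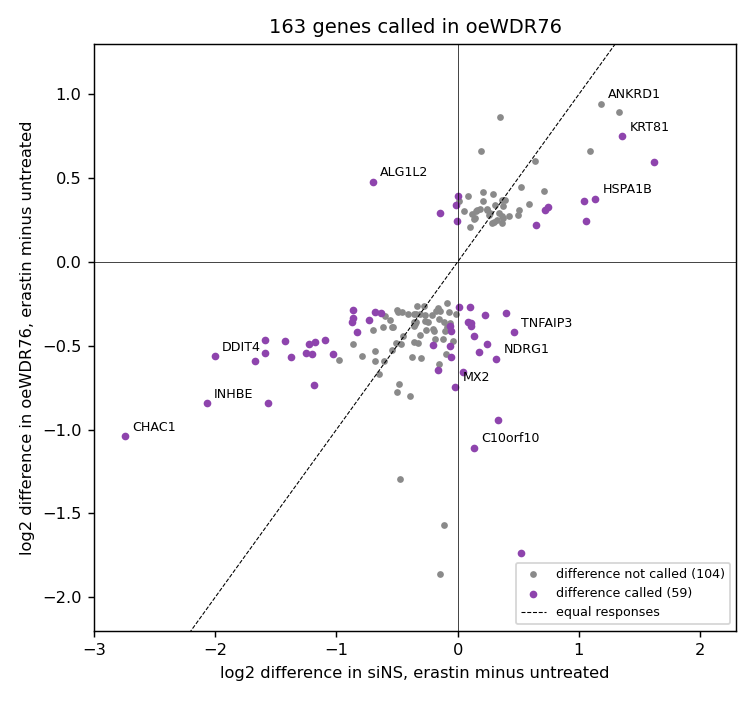
Erastin response in oeWDR76 (vertical) against that in siNS (horizontal) for the 163 genes called in oeWDR76, both on the log2(FPKM + 1) scale, with the dashed line marking equal responses. The 59 genes whose responses differed by test are purple; CHAC1 and INHBE lie at -1.04 and -0.84 in oeWDR76 and at -2.74 and -2.07 in siNS, and MX2 lies at -0.74 and -0.02.

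Of the 163 genes, 59 also differed between the responses in oeWDR76 and siNS. The 46 falls among them divided evenly: 23 had a lower response in oeWDR76 than in siNS, and 23 fell by less. The ATF4 genes CHAC1, INHBE, TRIB3, SESN2 and GPT2 belong to those that fell by less (differences of responses 1.70, 1.22, 0.95, 0.65 and 1.04). The interferon-stimulated genes MX1, XAF1, OAS2 and OAS3 had differences of -0.35, -0.70, -0.50 and -0.29. In siNS their means were only 6.61 ± 0.184, 1.22 ± 0.205, 6.17 ± 0.304 and 4.11 ± 0.177 FPKM (SD, n = 2), and on the log2(FPKM + 1) scale such low levels understate a change there. MX2 was near 0 in siNS, and its difference of responses restates its level in oeWDR76. Genes called lower in oeWDR76 and called higher in siNS were TNFAIP3, NDRG1, PARP14 and RGS3, and ALG1L2 was called in the reverse sense; RGS3 and PARP14 were picked out by this count. Of the 21 falls in the 4 lists of ATF4 and amino acid supply, 14 were called rises in siDCAF8+siLSH (10.6% of all tested genes were). In siNS 19 of the 21 were called falls, where 22.4% of all tested genes were called lower. PSAT1 had a response of -0.49 in oeWDR76, 0.27 in siDCAF8, 0.39 in siDCAF8+siLSH and -0.33 in siNS, and its difference from the mean of the other 3 was -0.60 (adjusted p = 0.0018). LURAP1L had -0.59, 0.39, 0.77 and -0.61 in the same order of genotypes (-0.77, adjusted p = 0.000204). NDRG1 had -0.58, 0.14, 0.67 and 0.32 (-0.95, adjusted p = 6.37e-05).

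The 6 genes past a 2-fold change were CHAC1, C10orf10 and 4 with uncertain values. GPR75-ASB3, URGCP-MRPS24 and RBM14-RBM4 are read-through transcripts that share exons with their neighbours, and TBC1D3 belongs to a family of near-identical copies, so the values of all 4 are uncertain. GPR75-ASB3 was listed at 0.49 and 0 FPKM in oeWDR76/Erastin and 2.93 and 4.02 FPKM in oeWDR76, while ASB3, which shares its exons, had 8.69 and 8.17 FPKM with erastin and 4.36 and 4.01 FPKM without (0.86, adjusted p = 0.0391). The read-through was lower in both erastin libraries and ASB3 higher. With a robust trend, limma lost the calls of GPR75-ASB3, URGCP-MRPS24, TBC1D3 and ASB3 (adjusted p = 0.243, 0.132, 0.224 and 0.158). The calls of GPR75-ASB3 and TBC1D3 were also lost with median-ratio scaling, quantile normalization, a replicate block and the GC and length correction. That correction also lost ASB3 (adjusted p = 0.053), and a pseudocount of 0.1 lost TBC1D3 (adjusted p = 0.193).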

How the data were processed

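RNA of HT-1080 cells was measured in 16 libraries of 8 groups. Trizol served for extraction and Smart-seq v4 for amplification, per the labels' protocols. The authors deposited FPKM with 2 decimals for each gene in each library. StringTie and the build GRCh38 are named per the submitters' processing notes. Their versions, the aligner, the annotation and the strand setting were not given in the sources used here. Of 24107 entries 17552 carry values, and 28 symbols turned into dates were restored. With no counts deposited, the depth is unknown, and the spread between 2 libraries is the known precision.

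log2(FPKM + 1) was fitted with limma 3.58.1 (R 4.3.3) as 8 group means over all 16 libraries, with a mean-variance trend, 8 residual and 8.57 prior degrees of freedom, for the 11260 genes whose FPKM averaged 1 or more. The contrasts were erastin within each genotype and the difference of the oeWDR76 response from that of siNS and from the mean of siDCAF8, siDCAF8+siLSH and siNS. All tests were two-sided with Benjamini-Hochberg adjustment within a contrast. Simulated data for erastin in oeWDR76 had 11260 genes, of which 200 were moved in each of 20 datasets. They moved by a log2 change of 0.3, 0.5, 1 or 2 in equal numbers, with noise drawn independently for each gene. Of the moved genes 47.3% were called at 0.3, 85.1% at 0.5 and 99% at 1, with 4.84% of calls false. The many large moves ease the adjusted threshold, and variation shared between genes was left out. These shares may therefore not hold in the real data.

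Named are the 3 targeted genes, 14 erastin and ferroptosis genes, the 15 largest rises and falls among called genes, up to 6 called members (or 2 members) of each of 34 hand-written lists, and the 5 called genes of largest difference from the other genotypes in each direction. Some genes named by this rule are not reported here. The comparison, lists and rule were chosen with earlier results of these data known, and lists have no test of their own. Promoter windows are RefSeq's (GRCh38.p14), available for 9283 tested genes, and in 22 of 24 windows checked the last 25 of the bases RefSeq gives after the start stand in a transcript of the gene. Python 3.11.15, pandas 2.3.3, numpy 2.4.6 and matplotlib 3.10.9 were used. The alternatives were other pseudocounts, filters, scalings, a GC and length correction, a robust trend, a fit of the compared groups alone, a replicate block and leaving out each library.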

Additional observations from a re-analysis of the deposited data

Results flagged for a closer look

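The genes below are named genes whose erastin response in oeWDR76 differed from that in siNS by limma's test of the difference itself (Benjamini-Hochberg adjusted p under 0.05). Values are the response in oeWDR76 minus that in siNS on the log2(FPKM + 1) scale.

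Among NRF2 and iron genes the values were -2.99 for HMOX1, -1.3 for FTH1, -1.09 for SQSTM1, -0.929 for GCLM, -0.765 for TXNRD1 and -0.519 for FTL. All 6 were called higher in siNS and none was called in oeWDR76. Among ATF4 and amino acid genes they were 1.7 for CHAC1, 1.22 for INHBE, 1.04 for GPT2, 0.952 for TRIB3, 0.729 for SLC1A4, 0.709 for SLC7A5, 0.653 for SESN2, 0.532 for SLC3A2, 0.517 for CARS, 0.384 for GOT1 and 0.38 for SLC1A5, all of which fell by less than in siNS. Interferon-stimulated genes gave -0.725 for MX2, -0.701 for XAF1, -0.496 for OAS2, -0.354 for MX1 and -0.288 for OAS3. MX2 was near 0 in siNS and the others were low there, so for MX2 the value restates its level in oeWDR76, and for the others the log2(FPKM + 1) scale understates a change in siNS. The NF-kB and immediate early genes gave -0.887 for TNFAIP3, -0.475 for NFKBIA, -0.321 for JUN and -0.282 for HBEGF.

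Heat shock genes gave -0.758 for HSPA1B and -0.677 for HSPA1A, a pair that may share reads. Matrix, cytoskeleton and YAP genes gave -0.729 for NUAK2, -0.61 for KRT81 and 0.449 for CTHRC1. Hypoxia and glucose genes gave 0.806 for STC1, -0.896 for NDRG1, -0.488 for PFKFB4 and 1.08 for TXNIP. The mitotic genes CDC20 and PLK1 gave 0.844 and 0.774.

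FRG2 and ALG1L2 have close paralogs, so their values are uncertain. The remaining values were -1.27 for NRSN1, -1.25 for C10orf10, -1.67 for S100P, 0.39 for CPA4, 1.18 for ALG1L2, 1.2 for FRG2, 0.917 for KLHL4 and -2.26 for URGCP-MRPS24, a read-through whose value is uncertain. S100P, FRG2 and KLHL4 were not called in oeWDR76 (adjusted p = 0.892, 0.148 and 0.464), where S100P stood at 0.24 and 0.12 FPKM in oeWDR76/Erastin and at 0 and 0.25 FPKM in oeWDR76.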

How the results depend on the processing

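In oeWDR76, 163 genes were called, and no called value changed sign under any alternative. The medians of 12 lists, each within 0.043 of 0, changed sign under at least 1 alternative, and the split of the difference from siNS, 63.9% higher, became 49.0% by quantile normalization and 50.5% by median-ratio scaling. The total was 84 (29 higher, 55 lower) with no filter on low values, where 17552 genes were tested, and 270 (92 higher, 178 lower) in a fit of only the 4 libraries compared. Quantile normalization gave 30 higher. Genes past 2-fold numbered 10 with a pseudocount of 0.1, 1 at mean FPKM of at least 5, and 3 with a robust trend or with the GC and length correction. Leaving out 1 library gave 27 to 39 calls, 9 to 13 higher, 18 to 29 lower and 3 to 6 past 2-fold; the lone library left is assumed to vary like the other groups. The difference from siNS then ran from 906 to 1738 calls, 573 to 1107 higher and 301 to 631 lower. The difference from the other 3 genotypes ran from 327 to 903, 233 to 562 higher and 94 to 341 lower, and was 1198 (768 higher) with the GC and length correction. Calls lost with a pseudocount of 0.1 included those of MX2, USP18, KLHDC7B, PTGES, ALOXE3, GOT1 and HSPA1A (adjusted p from 0.0515 for GOT1 to 0.42 for USP18). Quantile normalization lost, among others, those of GOT1, HBEGF, PLAU and ZMAT3. A robust trend lost, among others, those of TXNIP, SLC1A4 and NRSN1 (adjusted p = 0.0996, 0.053 and 0.053). The fit of only the 4 libraries compared lost, among others, those of TXNIP, ZMAT3 and HBEGF. The cause of these shifts was not tested.

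The replicate numbers do not pair the libraries by the labels. Same-numbered deviations correlated at 0.123 between the 2 groups, and the second component of the 4 libraries (28.1% of variance) separated the numbers. With the replicate number as a block, 156 genes were called in oeWDR76 (47 higher, 109 lower), 1635 in the difference from siNS and 848 in that from the other 3.

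The erastin effect in oeWDR76 had a slope of -0.03 log2 per 10% GC, and GC content with transcript length held 7.32% of its variance across 11086 genes. No empty-vector library is among the groups, so effects of the vector cannot be told apart from those of WDR76.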

Other observations

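Other called genes not yet given with values were picked after their values were seen, and they are given as values only. Several encode proteins of immune signalling, and all of those named here were lower in both erastin libraries. TRAF1, an adaptor of TNF receptors, had 13.1 and 13.8 FPKM in oeWDR76/Erastin and 19.7 and 21.3 FPKM in oeWDR76 (-0.57, SE 0.09, limma adjusted p = 0.00349). TNFRSF9 (4-1BB), a receptor of the same superfamily, had 1.59 and 1.52 FPKM with erastin and 3.07 and 2.72 FPKM without (-0.61, limma adjusted p = 0.0132). The transcription factor BATF2 had 6.51 and 7.53 FPKM with erastin and 10.6 and 11.1 FPKM without (-0.57, limma adjusted p = 0.00975). IKBKE, a kinase upstream of interferon regulatory factors, had 7.03 and 6.6 FPKM with erastin and 9.22 and 9.89 FPKM without (-0.43, limma adjusted p = 0.0134). GBP5, an interferon-inducible GTPase, had 11.2 and 10.2 FPKM with erastin and 14.8 and 13 FPKM without (-0.35, limma adjusted p = 0.0448). Of these, TNFRSF9, IKBKE and GBP5 were called in none of the fits that left out 1 library.

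DDIT4, JDP2 and CEBPB are members of the ATF4 list and are counted among its 11 falls. DDIT4, an mTORC1 inhibitor induced by stress, had 154 and 147 FPKM in oeWDR76/Erastin and 229 and 217 FPKM in oeWDR76 (-0.56, SE 0.13, limma adjusted p = 0.0382). In siNS/Erastin it had 50.9 ± 5.2 FPKM and in siNS 207 ± 0.636 FPKM (SD, n = 2), a larger fall by test of the difference (1.44, limma adjusted p = 0.000151). JDP2, an AP-1 repressor, had 5.89 and 6.42 FPKM with erastin and 8.85 and 8.88 FPKM without (-0.46, limma adjusted p = 0.0242). CEBPB, which encodes a C/EBP factor, had 53 and 52.4 FPKM with erastin and 68.8 and 67.2 FPKM without (-0.36, limma adjusted p = 0.0391). DDIT4, JDP2 and CEBPB were likewise called in none of those fits.

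Among the smaller rises were CLIC4, a chloride channel family protein, and NPC2, which carries cholesterol out of lysosomes. CLIC4 had 98.2 and 96.2 FPKM with erastin and 78.1 and 72.3 FPKM without (0.37, limma adjusted p = 0.00244), and it was called in 3 of the 4 fits without 1 library. NPC2 had 173 and 168 FPKM with erastin and 132 and 142 FPKM without (0.31, limma adjusted p = 0.0107). C5orf58, whose rise was larger, had 14.7 and 15.3 FPKM with erastin and 8.51 and 9.73 FPKM without (0.66, limma adjusted p = 0.0274). Its call was lost with the GC and length correction (limma adjusted p = 0.0719).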
